A study of Homo sapiens with 9 samples.

Results

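The genes described here are cytochrome c (CYCS) and 9 genes of the mitochondrial pathway of apoptosis: APAF1, BAX, BAK1, BCL2, BCL2L1, MCL1, BBC3, BID and BCL2L11. Their probes were those carrying exactly 1 of these symbols in the platform annotation, which held for 17 of 35328 probes and for 8 of the 10 genes, out of 16166 named genes on the array. Of the 28259 probes with enough signal to be tested, 15 belonged to 7 of the genes. CYCS was selected on its log2 ratios, which rose with every siRNA, so its values are given as a description with no test, and the tests concern the other 14 probes. Messenger RNA was measured in SKbr3, a human breast cancer cell line with an amplified HER2 gene. Cells given 1 of 3 siRNAs against TRMT12, an enzyme that helps build the modified base wybutosine in phenylalanine transfer RNA, were compared with cells given control siRNA. Each siRNA had 3 two-colour arrays, arrays 1 and 2 carrying the knockdown sample in Cy5 and array 3 carrying it in Cy3. Every value below is a log2 ratio of knockdown over control after loess normalisation within the array, unless an intensity is named. The sources used here do not give the siRNA dose, the time after transfection, the number of cultures or whether the 3 siRNAs shared a control RNA. The p-values therefore measure how arrays differ, and that spread may be technical. In bulk RNA, a change in every cell and a change in the share of cells carrying a transcript cannot be told apart.

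Cytochrome c carries electrons between respiratory complexes III and IV in the space between the mitochondrial membranes. In apoptosis the effectors BAX and BAK1 open the outer membrane, cytochrome c reaches the cytosol, and it assembles with APAF1 into the apoptosome, which activates caspases. BCL2, BCL2L1 and MCL1 hold the effectors in check, and the BH3-only proteins BBC3 (PUMA), BID and BCL2L11 (BIM) relieve that check or engage the effectors directly.

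TRMT12 was lower on 9 of 9 arrays, with ratios between -2.73 and -2.35, and the fitted values left 16.3%, 17.6% and 18.1% of the control level with siRNA 1, 2 and 3. All 8 luminal and HER2 amplicon markers were measured on all 9 arrays, and 7 of the 9 markers of basal, mesenchymal, blood or endothelial cells passed the filter as well. CD3E and PECAM1, of T cells and endothelium, did not pass it. Each marker was read at its brightest probe. There GATA3 was the 1 luminal marker called, lower by -0.53 with each siRNA. ERBB2 had -0.33, -0.29 and 0.04 at that probe, and -0.70, -0.59 and -0.26 at a second probe. A second GRB7 probe had 0.20, 0.25 and -0.12, and a second KRT8 probe -0.11, -0.14 and -0.19. Calls at second probes were not counted. Among the markers of other cells 2 of 7 were lower with siRNA 1 (VIM and COL1A1) and none was called with siRNA 2 or 3.

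One array stood apart in a way that touches CYCS. The array is printed in 48 blocks, and on array 2 of siRNA 3 the spot intensities in blocks 7 and 8 correlated with the median of the other 8 arrays at only r = 0.153 and 0.0549 across probes. Every other block of that array reached at least 0.969, and every block of the other arrays at least 0.880. Array 2 of siRNA 2 was the lowest of those, with blocks from 0.880 to 0.974, and the remaining arrays reached at least 0.956. Moved by 1 column, the same blocks correlated at 0.979 and 0.979. The values of 1266 tested probes (4.48%) on that array are thus listed in the row of the neighbouring spot. Among them were CYCS and 1 of the MCL1 probes. Results at these probes are given as deposited and with both blocks realigned by 1 column, a choice made after seeing the data.

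**Figure D1:**
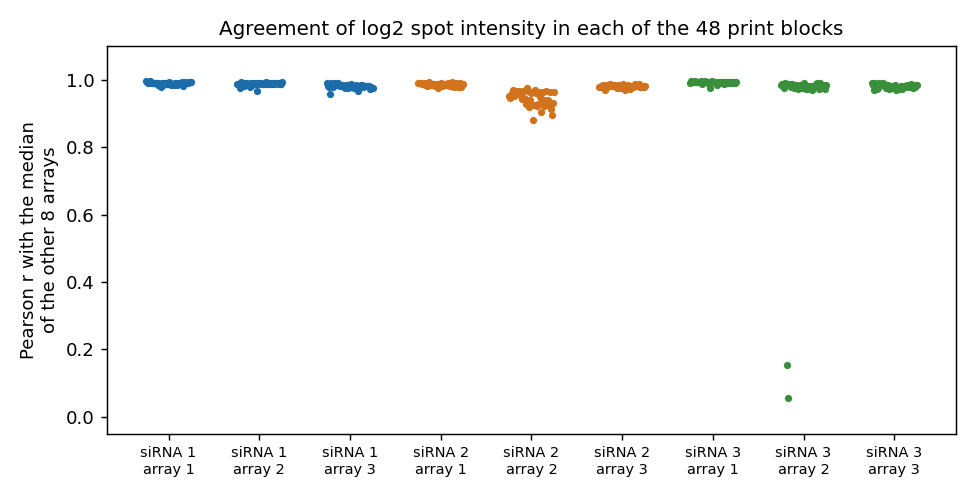
Pearson correlation (vertical axis) of log2 spot intensity on each array with the median of the other 8 arrays, 1 point for each of the 48 print blocks, coloured by siRNA. Blocks 7 and 8 of siRNA 3 array 2 sit at 0.153 and 0.0549, and all other points lie at 0.880 or above.

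The promoters of CYCS and BBC3 are shown because these genes had the probes with the largest mean rise over the siRNAs among the members. The stretches are the 250 bases before the start that the RefSeq promoter table uses on GRCh38.p14, read 5′ to 3′ on the gene's strand, which is the minus strand for both, at chr7:25125261-25125510 and chr19:47232668-47232917. For CYCS that start is the outermost one of the gene. For BBC3 it lies inside the gene as RefSeq delimits it, so most of the BBC3 stretch lies within the gene, downstream of its outermost start. Capitals mark matches on either strand to 5 short motifs: the NRF1 core GCATGCGC, the cAMP response half-site TGACG, the E-box CACGTG, the CCAAT box and the TATA box TATAAA.
CYCS: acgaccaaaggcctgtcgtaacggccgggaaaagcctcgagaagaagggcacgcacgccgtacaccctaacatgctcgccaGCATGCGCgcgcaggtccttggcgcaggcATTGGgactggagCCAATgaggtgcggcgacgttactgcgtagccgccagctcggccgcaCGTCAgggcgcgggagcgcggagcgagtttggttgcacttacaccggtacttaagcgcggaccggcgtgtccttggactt
BBC3: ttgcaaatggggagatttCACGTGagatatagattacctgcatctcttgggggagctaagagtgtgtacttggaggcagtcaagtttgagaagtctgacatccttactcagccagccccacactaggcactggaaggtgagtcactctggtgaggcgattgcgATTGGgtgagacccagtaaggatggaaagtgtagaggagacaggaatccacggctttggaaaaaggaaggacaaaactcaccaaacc
The CYCS stretch held 1 NRF1 core, 1 half-site and 2 CCAAT boxes, and the BBC3 stretch 1 E-box and 1 CCAAT box. Of the same stretches before all 35116 RefSeq starts in the table, 2.63% held the NRF1 core, 21.2% the half-site, 6.34% the E-box, 32.0% a CCAAT box and 10.7% a TATA box. A match describes these letters and says nothing of binding in these cells.

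CYCS messenger RNA was higher in the knockdown on all 9 arrays. The ratios were 1.36, 1.49 and 1.49 with siRNA 1, 1.46, 1.40 and 1.39 with siRNA 2, and 0.93, 0.12 and 0.95 with siRNA 3. The arrays of siRNA 1 and 2 lay close together, and all 6 lay above those of siRNA 3. The value of 0.12 came from the displaced block, and realignment turned it to 0.79.

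**Figure D2:**
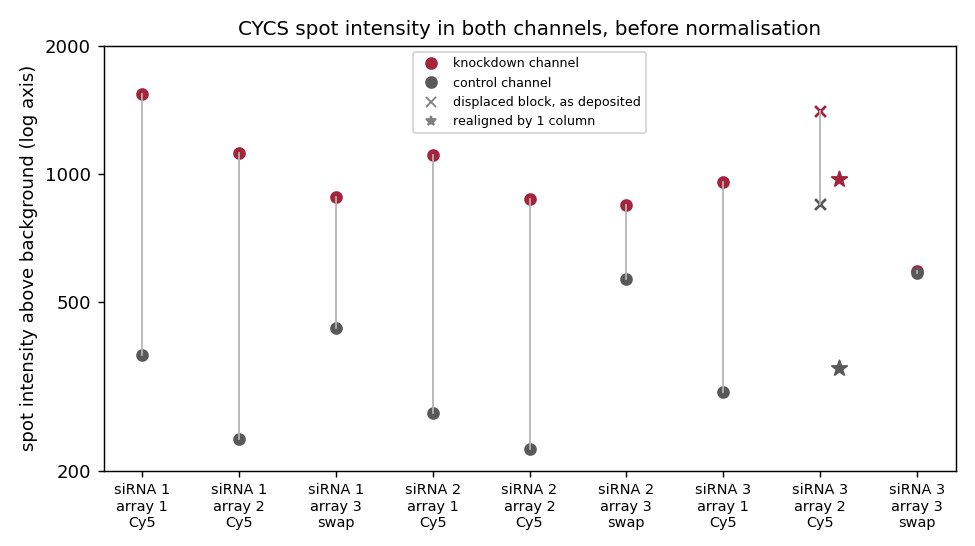
CYCS spot intensity above local background (log axis) in the knockdown and control channels of each array, before normalisation, with the displaced block of siRNA 3 array 2 as deposited (crosses) and realigned (stars). Where Cy5 carried the knockdown and the spot was not displaced, the knockdown channel lies between 872.4 and 1543 and the control channel between 224.7 and 374.7.

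The spot intensities behind these ratios differed by dye. With the knockdown in Cy5 the knockdown and control channels read 1543 and 374.7, and 1120 and 237.3, with siRNA 1. With siRNA 2 they read 1108.3 and 273.1, and 872.4 and 224.7. On the dye-swapped arrays the channels were closer, at 880.1 and 434.6, 843.1 and 564.9, and 589.8 and 583.6 with siRNA 1, 2 and 3, and the control sample carried Cy5 there. After loess normalisation the fitted dye term of CYCS was -0.08 (SE 0.0914).

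The mean ratio of CYCS was 1.45 ± 0.0784 (SD, n = 3) for siRNA 1. For siRNA 2 the mean was 1.42 ± 0.0397 (SD, n = 3). For siRNA 3 it was 0.67 ± 0.477 as deposited and 0.893 ± 0.0864 realigned (SD, n = 3 in both cases). The dye-adjusted values correspond to 2.78-fold, 2.72-fold and 1.62-fold (1.86-fold realigned). The fitted value with siRNA 2 differed from that with siRNA 1 by -0.03. siRNA 3 minus siRNA 1 was -0.78 as deposited and -0.56 realigned. Against siRNA 2 it was -0.75 as deposited and -0.53 realigned. On these arrays siRNA 3 had the lowest of the 3 values with either reading of that block, and the gap was narrower after realignment. Normexp background correction, run with the block as deposited, gave lower values, 0.945 with siRNA 2 and 0.387 with siRNA 3, against 1.37 with siRNA 1.

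Counted from the top of all 28259 tested probes as deposited, CYCS took place 43, 195 and 245 with siRNA 1, 2 and 3. By the mean over the siRNAs, 1.20 (SE 0.16), it took place 39. The siRNA 3 value and that mean include the displaced spot. Realigned, the fitted value with siRNA 3 was 0.90 in place of 0.69, and the mean was 1.26 (SE 0.128). The places were not recomputed after realignment. The signal came from 1 probe, HV3-69O11. The human gene table lists 45 pseudogenes of CYCS. Their sequences were not compared with the probe, and whether their transcripts, if any, share it was not tested.

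The named genes whose 9 ratios differed least from those of CYCS were PHC3, ZNF652, GCC2, BPNT1 and CSGALNACT2. Their root mean square difference from CYCS over the 9 arrays ran from 0.241 for PHC3 to 0.344 for CSGALNACT2, among 17407 probes compared. The same 5 genes led with the blocks realigned. PHC3 encodes a Polycomb protein and had 1.08 as its mean over the siRNAs. GCC2, a golgin of the trans-Golgi, had 1.06, and ZNF652, a zinc-finger gene, 1.36. BPNT1, a nucleotidase of sulfate metabolism, had 1.05 and CSGALNACT2, a chondroitin sulfate transferase, 1.16.

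APAF1, the scaffold that cytochrome c binds, had 1 dim probe with no ratio on array 2 of siRNA 2. Its ratios were 0.11, -0.99 and 0.06 with siRNA 1, -0.14 and 0.10 with siRNA 2, and -0.07, 0.05 and -0.06 with siRNA 3. After loess the values lay close to 0 apart from a single array of siRNA 1, but that depended on the scaling. With the authors' ratios the fitted value with siRNA 2 was -0.98 (limma adjusted p = 0.23), in place of -0.02. Limma called no difference with any siRNA (adjusted p = 0.501, 0.962 and 0.985), but the 95% intervals were wide, from -0.76 to 0.29 with siRNA 1.

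BBC3, the BH3-only protein PUMA and a textbook target of p53, had 2 probes that moved in opposite directions. At HV3-16P20 the ratios were 0.72, 0.66 and 0.82 with siRNA 1, 0.26, 0.15 and 0.38 with siRNA 2, and 0.10, 0.08 and 0.31 with siRNA 3. All 9 were above 0, and the arrays of siRNA 1 did not overlap those of the others. The probe was higher with each siRNA in limma: 0.76 (SE 0.0438, adjusted p = 0.000237), 0.30 (adjusted p = 0.00544) and 0.19 (adjusted p = 0.0238). These are 1.70-fold, 1.23-fold and 1.14-fold.

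The other BBC3 probe, HV3-16P22, was lower where Cy5 carried the knockdown and near 0 on the swapped arrays. Its ratios were -0.35, -0.48 and -0.05 with siRNA 1, -0.68, -0.55 and 0.00 with siRNA 2, and -0.61, -0.31 and -0.05 with siRNA 3. The fall with siRNA 2 was called (-0.33, SE 0.0754, limma adjusted p = 0.0245), while siRNA 1 and 3 had -0.22 and -0.25 (adjusted p = 0.087 and 0.0638). Its dye term, -0.23 (adjusted p = 0.0125), was of the same size as these values. Spot intensity was 242.7 to 516.9 in the knockdown channel at this probe and 2063.7 to 6111.7 at HV3-16P20. Both probes are assigned to BBC3 in the platform annotation and in the array files, and which of them reads the gene was not tested.

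BCL2L11, the BH3-only protein BIM, was measured by 3 probes, and 2 of them were called lower, but not with the same siRNAs. At HV3-49C15 the ratios were -0.47, -0.56 and -0.51 with siRNA 1, -0.15, -0.12 and -0.14 with siRNA 2, and -0.37, -0.29 and -0.15 with siRNA 3. Every array was below 0, and the arrays of siRNA 1 lay below all others. Limma called the fall with siRNA 1 (-0.50, SE 0.0503, adjusted p = 0.00104) and siRNA 3 (-0.26, adjusted p = 0.0134), and not with siRNA 2 (-0.13, adjusted p = 0.115).

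The dimmer BCL2L11 probes did not follow the same order of siRNAs. HV3-49C17 was called lower with siRNA 2 alone (-0.26, SE 0.0681, limma adjusted p = 0.0415), with -0.19 and -0.01 for siRNA 1 and 3. HV3-49C13 had -0.16, -0.33 and 0.04 (adjusted p = 0.455, 0.119 and 0.909). Its 3 dye-swapped arrays read 0.04, 0.04 and 0.10, and its 6 others were all negative, from -0.97 to -0.06.

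BID, the BH3-only protein that caspase 8 cleaves to link death receptors to mitochondria, was called lower with siRNA 3 at 1 of 2 probes. Both probes had a fitted value of -0.20 with that siRNA. HV3-02H21 had 0.02, -0.15 and 0.02 with siRNA 1, -0.16, -0.26 and -0.07 with siRNA 2, and -0.34, -0.26 and -0.06 with siRNA 3. All 6 arrays of siRNA 2 and 3 were negative, but each group held a value within the range of siRNA 1. The fitted value with siRNA 3 was -0.20 (SE 0.0546, limma adjusted p = 0.0484). HV3-02H19 had 0.10, -0.13 and -0.20, with adjusted p of 0.432, 0.255 and 0.113.

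BAX, an effector that forms the pore, was called lower at 1 of its 4 probes. HV3-10E07 had -0.03, -0.04 and -0.07 with siRNA 1, -0.20, -0.30 and -0.11 with siRNA 2, and -0.25, -0.27 and -0.22 with siRNA 3. The arrays of siRNA 1 lay above all the others. Limma called the fall with siRNA 2 (-0.19, SE 0.0465, adjusted p = 0.0298) and siRNA 3 (-0.24, adjusted p = 0.0138), which are decreases of 1.14-fold and 1.18-fold.

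The other 3 BAX probes were not called with any siRNA. HV3-10E01 came closest with siRNA 3, where its arrays read -0.63, -0.37 and -0.02 (fit -0.30, limma adjusted p = 0.0626). With that siRNA the dim remaining probe had -0.16 and HV3-10E03 had 0.16. Across the 4 probes the mean over the siRNAs ran from -0.16 to 0.01.

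BAK1, the second effector, had no probe with its symbol alone in the platform annotation. The probe HV3-03F22 is assigned to the pseudogene BAK1P1 there and to BAK1 by its transcript in the array files, and it counts as no member. Its ratios were -0.15, -0.18 and -0.23 with siRNA 1, -0.17, -0.48 and -0.13 with siRNA 2, and -0.04, 0.05 and 0.06 with siRNA 3. The arrays of siRNA 1 and 2 lay below those of siRNA 3, and limma called none of the fitted values (-0.18, -0.25 and 0.03, with adjusted p of 0.132, 0.051 and 0.848).

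MCL1, a short-lived guardian that binds BAK1 and BIM, was measured by 2 probes that differed with siRNA 3. HV3-42F01 had 0.20, 0.16 and 0.27 with siRNA 1, 0.17, 0.17 and -0.06 with siRNA 2, and 0.07, 0.01 and 0.06 with siRNA 3. It was called higher with siRNA 1, by 0.21 (SE 0.0581, limma adjusted p = 0.0455), and not with siRNA 2 or 3 (0.09 and 0.04). It was printed outside the displaced blocks.

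The other MCL1 probe, HV3-42D23, lies in block 8. As deposited it had 0.03, 0.14 and 0.37 with siRNA 1, 0.01, -0.06 and 0.30 with siRNA 2, and -0.49, -0.15 and -0.26 with siRNA 3. On array 2 of siRNA 3 its channels read 388.3 and 244.3 as deposited and 1961.9 and 1677 realigned, where the knockdown channel of the other arrays of that siRNA read 1593.4 and 1263.1. The realigned ratio of that array was -0.34. As deposited no siRNA was called, with 0.22 for siRNA 1 (limma adjusted p = 0.0931), 0.12 for siRNA 2 (0.297) and -0.26 for siRNA 3 (0.0601). Realigned, it was higher with siRNA 1 (0.22, adjusted p = 0.0253) and lower with siRNA 3 (-0.32, adjusted p = 0.00777), so the block decided both calls.

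BCL2, the founding guardian of the family, was not well above background. Its probes HV3-68N06 and HV3-68N08 were detected on 3 and 4 of the 9 arrays and gave a ratio on 2 and 3, so neither was tested. The ratios at hand were 0.20 and 0.14 at the former, and 0.25, -0.04 and -0.27 at the latter. BCL2L1 (BCL-XL) had no probe with its symbol alone. HV3-32D11 carries 3 symbols, COX4I2, ID1 and BCL2L1, and its ratios ran from -1.87 to 0.78. A further probe is named BCL2L1 by transcript but titled as a forkhead gene in the array files, and limma called neither probe with any siRNA.

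**Figure D3:**
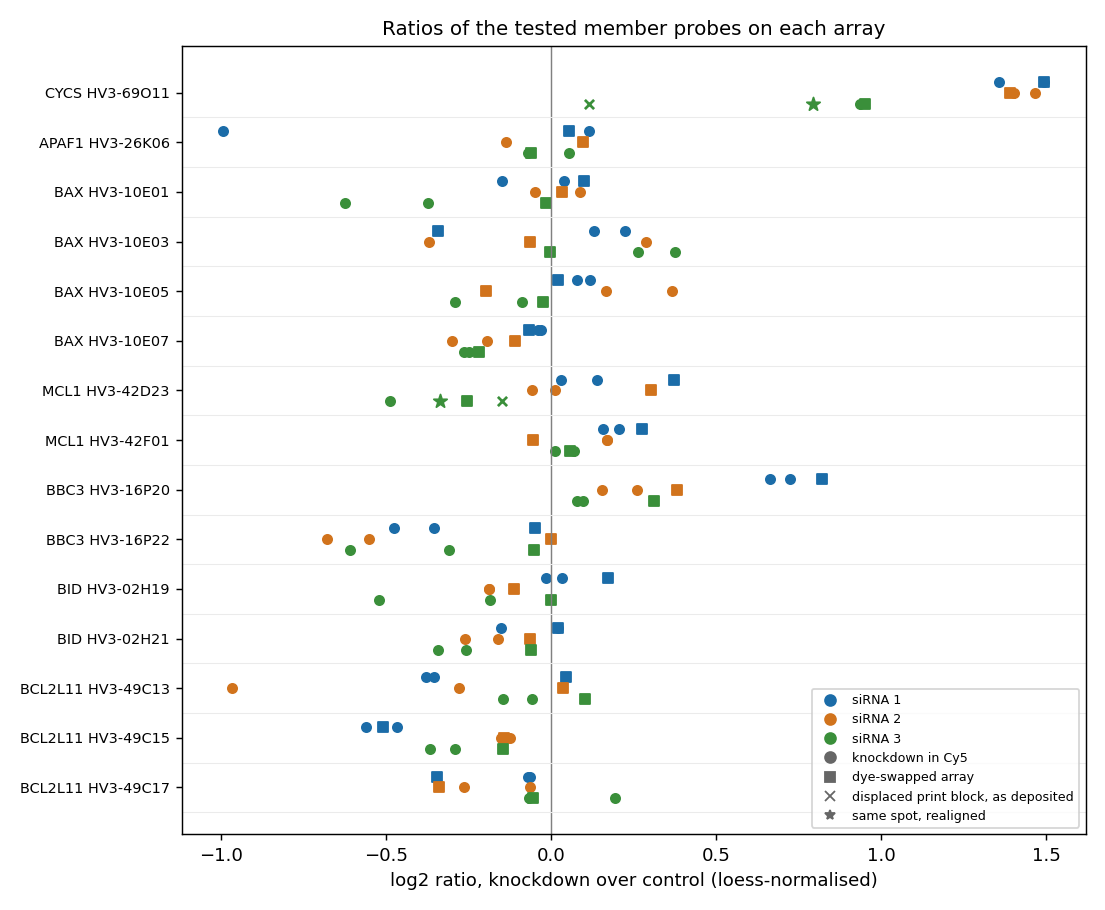
Loess-normalised log2 ratio of knockdown over control (horizontal axis) on each array for the 15 tested member probes, coloured by siRNA, with circles for arrays with the knockdown in Cy5 and squares for dye-swapped arrays. CYCS lies between 0.93 and 1.49 apart from its displaced value of 0.12 (0.79 realigned), HV3-16P20 of BBC3 lies above 0 on all 9 arrays, and HV3-49C15 of BCL2L11 lies below 0 on all 9.

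Counted together, the 14 tested probes other than CYCS were called about as often as any probe. With siRNA 1, limma called 3 of 14 (21.4%), 2 higher and 1 lower, where 22.9% of all tested probes were called, 11.6% higher and 11.3% lower. With siRNA 2 it called 4 of 14 (28.6%), 1 higher and 3 lower, against 20.2% of all probes, 10.5% higher and 9.74% lower. With siRNA 3 it called 4 of 14, again 1 higher and 3 lower, against 20.0% of all probes, 9.90% higher and 10.1% lower. Their median ratio was -0.02, -0.11 and -0.18 with siRNA 1, 2 and 3, and all tested probes had medians of -0.01, 0.02 and 0.00. Over 14 probes these shares lie near the background and are no result about the members. With the blocks realigned the counts were 4, 4 and 5, and 23.5%, 20.8% and 20.9% of all probes were called.

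Across the siRNAs, taken as 3 values against 0, limma called 0 of the 14 probes, where 0.00354% of all tested probes (TRMT12 itself) were called. At an unadjusted p under 0.05 there were 3 of 14 (21.4%) against 23.4% of all probes. These were HV3-16P20 of BBC3 (0.42, SE 0.125, limma adjusted p = 0.152), HV3-16P22 of BBC3 (-0.27, adjusted p = 0.115) and HV3-49C15 of BCL2L11 (-0.30, adjusted p = 0.162).

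**Figure D4:**
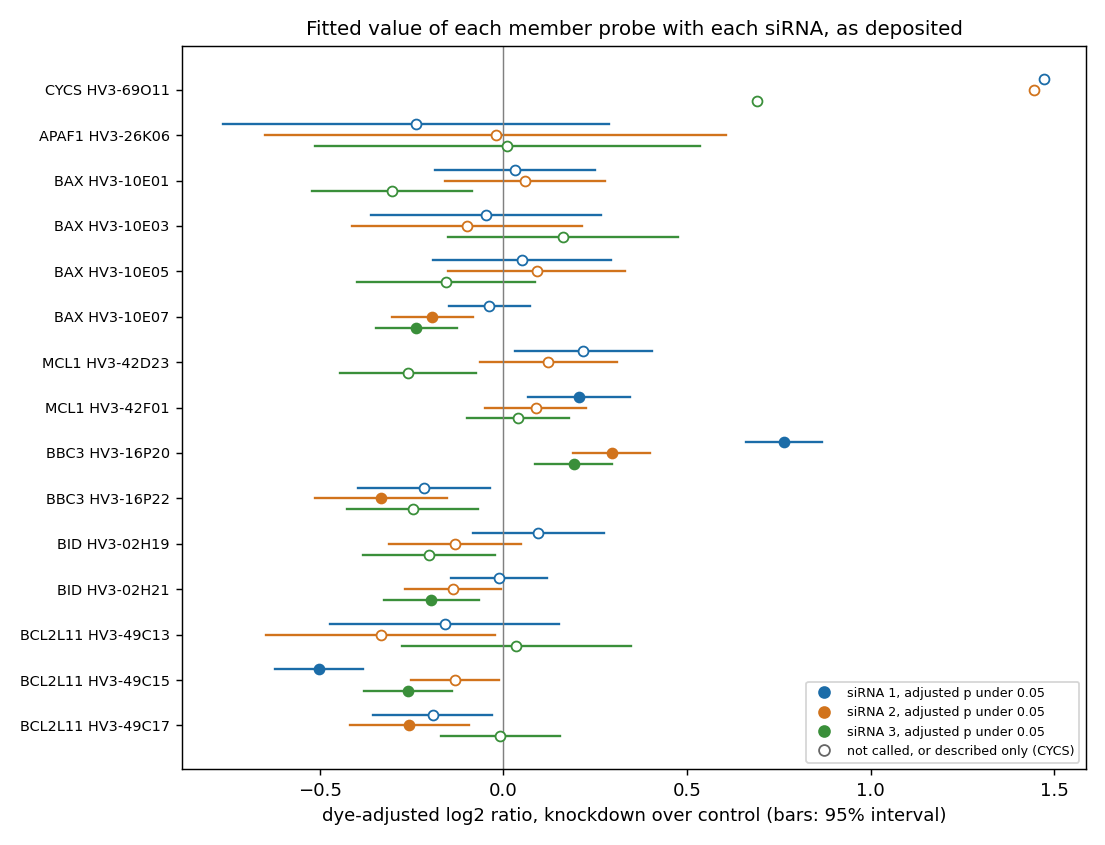
Dye-adjusted log2 ratio of each tested member probe with each siRNA (points) with its 95% interval (bars, not drawn for CYCS), as deposited, over 9 arrays in 1 fit. Filled points have an adjusted p under 0.05 in limma, and CYCS is drawn open because it is described only. BBC3 shows filled points on both sides of 0 at its 2 probes.

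The size of the change differed between siRNAs at HV3-16P20 of BBC3 and HV3-49C15 of BCL2L11. Of 14 probes, 2 differed between siRNA 2 and 1, where 2.59% of all probes were called. HV3-16P20 of BBC3 was lower with siRNA 2 than with siRNA 1 by -0.47 (SE 0.0607, limma adjusted p = 0.0213), and HV3-49C15 of BCL2L11 was higher by 0.37 (adjusted p = 0.0487), its fall being smaller. In that contrast HV3-16P22 of BBC3 had -0.12, and HV3-49C13 and HV3-49C17 of BCL2L11 had -0.17 and -0.06. None of these was called (adjusted p = 0.564, 0.622 and 0.738). Between siRNA 3 and 1, 2 of 14 differed against 9.26% of all probes: HV3-16P20 of BBC3 by -0.57 (adjusted p = 0.00646) and HV3-42D23 of MCL1 by -0.48 (adjusted p = 0.0416, and -0.54 with adjusted p = 0.0107 realigned). Between siRNA 3 and 2 none of 14 was called, 3 had an unadjusted p under 0.05, and 10.2% of all probes were called. Realigned, HV3-42D23 differed there too (-0.45, adjusted p = 0.0159). The siRNAs left similar amounts of TRMT12, and these contrasts share arrays. The dye term was called for 2 of 14 probes, both of BBC3, against 29.2% of all probes.

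The genes around the members were read in 5 lists, each gene at its brightest probe. The shares of all tested probes to set beside their counts are those above, 11.6% higher and 11.3% lower with siRNA 1, 10.5% and 9.74% with siRNA 2, and 9.90% and 10.1% with siRNA 3. Of 13 measured genes of the wider BCL2 family, limma called 2 higher and 4 lower with siRNA 1, 1 and 2 with siRNA 2, and 1 and 3 with siRNA 3, with a median of -0.17 for the mean over the siRNAs against 0.00 for all probes. BOK, a BAX-like effector, was lower with every siRNA (-0.57, -0.63 and -0.47, with adjusted p of 0.00273, 0.00226 and 0.00631). PMAIP1, the BH3-only protein NOXA, was higher with siRNA 1 and 2 (0.62 and 0.55, adjusted p = 0.00473 and 0.00957) and had 0.18 with siRNA 3, while its second probe had -0.10, -0.14 and 0.03. BAD, another BH3-only protein, was lower with siRNA 1 and 3 (-0.19 and -0.50, adjusted p = 0.0321 and 0.00148). Its second, dim probe had -0.28, -0.15 and -0.04 with siRNA 1, 2 and 3. BNIP3L, a mitophagy receptor, was higher with siRNA 1 and 3 (0.59 and 0.33). HRK and BCL2A1, both dim, had means over the siRNAs of -0.36 and 0.03 and were not called.

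Of 10 measured apoptosome, caspase and IAP genes, 2 were higher and 4 lower with siRNA 1, 0 and 3 with siRNA 2, and 1 and 4 with siRNA 3 (median -0.01). BIRC2 (cIAP1), an inhibitor of apoptosis, lies in a displaced block. As deposited it had 0.36, 0.37 and 0.18 and was not called (limma adjusted p = 0.289, 0.255 and 0.657), and realigned it had 0.33, 0.33 and 0.53 and was called with all 3 siRNAs (adjusted p = 0.00388, 0.00448 and 0.00119). Its neighbour BIRC3 (cIAP2) had 0.73, 0.70 and 0.93 at a dim probe, with a call for siRNA 3 alone (adjusted p = 0.0269). BIRC5 (survivin), which also serves in mitosis, was lower with siRNA 1 and 3 (-0.48 and -0.58, adjusted p = 0.00159 and 0.00134). HTRA2, a protease released beside cytochrome c, was lower with siRNA 1 and 3 (-0.22 and -0.57). AIFM1, a flavoprotein of the same compartment, was called lower with siRNA 1 and 2 (-0.27 and -0.43). It had -0.23 with siRNA 3 (adjusted p = 0.054), and its second probe had -0.30, -0.19 and -0.53.

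Among 11 measured regulators of BCL2 proteins the calls were 1 higher and 1 lower, 1 and 4, and 2 and 0 (median 0.01). BCLAF1, a BCL2-associated nuclear factor, was higher with every siRNA (0.42, 0.27 and 0.40, limma adjusted p = 0.0093, 0.0477 and 0.0129). USP9X, which removes ubiquitin from MCL1, was called with siRNA 3 (0.23, adjusted p = 0.0475), and the adaptor YWHAZ was not called. BAG1, a BCL2-binding co-chaperone, was called lower with siRNA 2 (-0.22), where its ratio was -0.41 on the swapped array and 0.06 and -0.11 on the others. The channels VDAC1 and VDAC3 of the outer membrane were lower with siRNA 2 (-0.19 and -0.24), VDAC3 also with siRNA 1 (-0.23). With siRNA 3 both were above 0 and not called (0.06 and 0.18, adjusted p = 0.477 and 0.058).

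The enzymes that mature or meet cytochrome c were mostly not called. Of 20 measured genes, limma called 0 higher and 5 lower with siRNA 1, 1 and 4 with siRNA 2, and 1 and 3 with siRNA 3, with a median of -0.03 for the mean over the siRNAs. The highest means were those of UQCRB of complex III (0.11), COX7A2 (0.10) and COX6C (0.06) of complex IV. The UQCRB probe was dim, was called higher with siRNA 2 and 3, and had -0.13 with siRNA 1. SUOX, the sulfite oxidase that passes electrons to cytochrome c, was lower with every siRNA at a dim probe (-0.58, -0.27 and -0.47, adjusted p = 0.00111, 0.0213 and 0.003). GFER, of the disulfide relay, was lower with every siRNA too (-0.29, -0.34 and -0.21). COX8A of complex IV was also called lower with each siRNA (-0.29, -0.24 and -0.23). Its ratios were -0.56, -0.59 and -0.59 on the dye-swapped arrays and between -0.05 and 0.20 on the others, so the direction was seen in 1 dye orientation alone. HCCS, which attaches haem to cytochrome c, had 0.04, -0.11 and 0.09.

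Factors known to drive cytochrome c and mitochondrial genes moved both ways. Of 11 measured, 5 were higher and 2 lower with siRNA 1, 3 and 1 with siRNA 2, and 7 and 1 with siRNA 3 (median 0.20). TFAM, which packages and transcribes mitochondrial DNA, was higher with every siRNA (0.21, 0.33 and 0.59, limma adjusted p = 0.0152, 0.00385 and 0.000965), and so was MYC (0.31, 0.25 and 0.47). CREB1, the factor of the half-site above, was higher with each siRNA (0.34, 0.31 and 0.19, adjusted p = 0.00415, 0.0074 and 0.0413). GABPB1, a subunit of GABP, was higher with siRNA 1 and 3 (0.47 and 0.26). NRF1 was called with siRNA 1 alone (0.53, adjusted p = 0.00709), with -0.11 and 0.17 for siRNA 2 and 3. The coactivator PPARGC1B was lower with every siRNA (-0.48, -0.31 and -0.39), the nuclear receptor ESRRA lower with siRNA 1 (-0.24), and SP1 higher with siRNA 3 (0.30). A second, dim SP1 probe had -0.11, 0.04 and 0.01, and a second, dim MYC probe 0.27, 0.01 and 0.35. CREB1, NRF1 and HCCS were named after their values were seen. Whether any factor of this list acts on CYCS in these cells was not tested.

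**Figure D5:**
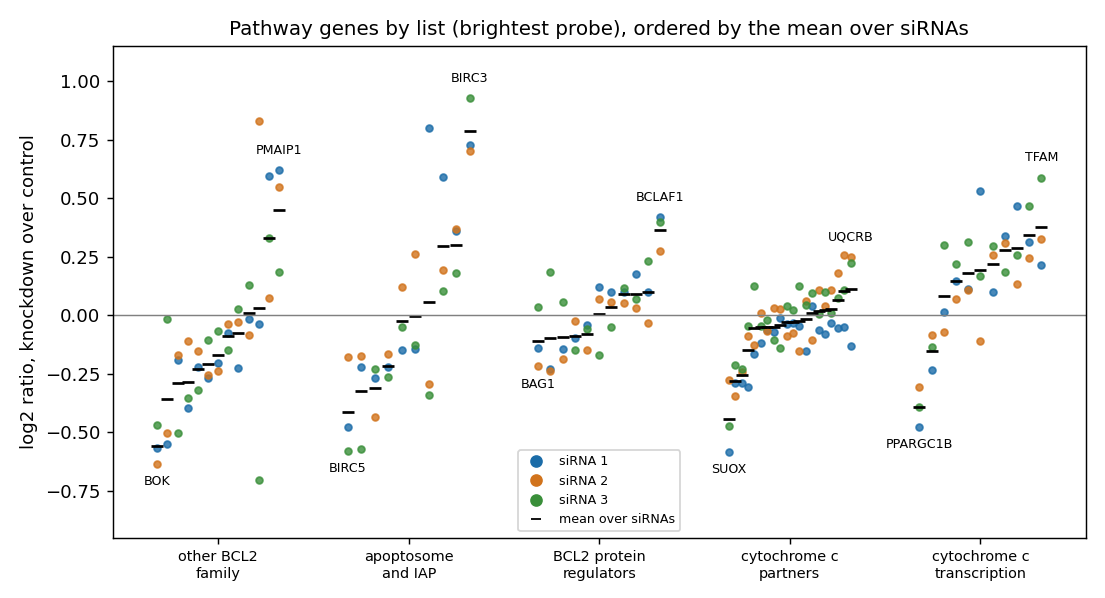
Log2 ratio of knockdown over control (vertical axis) for each measured gene of the 5 lists with siRNA 1, 2 and 3 (coloured points) and as the mean over the siRNAs (black bars), ordered by that mean within a list and shown as deposited. BOK sits lowest in the BCL2 family at a mean of -0.56, and BIRC3 highest among the apoptosome and IAP genes at 0.78.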

How the data were processed

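Per the labels' protocols, amplified RNA in Cy3 or Cy5 was hybridised to spotted oligonucleotides. The deposited array files give spot intensity above local background in both channels with a floor of 1, a ratio calibrated by 1 factor per array, and a spot quality, a fraction between 0 and 1. A further deposited table holds log2 values that equal log2 of the calibrated ratio on 6 arrays and minus it on the 3 dye-swapped arrays. The series text states that swapped columns were already exchanged, so the files' ratios needed no turning to read knockdown over control. The sources used here name no image program, scanner or genome build.

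Because the intensities were already background-subtracted, log2 ratios were normalised by loess within arrays with limma 3.58.1 in R 4.3.3, with the 960 blank spots at weight 0. A probe was tested if either channel exceeded 2 background standard deviations on 6 or more arrays and each siRNA had a ratio in both orientations. Single siRNAs and their differences came from 1 limma fit of 9 arrays with a dye term. For the mean over the siRNAs, the 3 siRNA values, each weighting both dye orientations equally, were tested against 0. P-values were adjusted by Benjamini-Hochberg over all 28259 tested probes, with a threshold of 0.05. A probe is called dim below the median log2 intensity of the tested probes, 8.64. Median spot intensity per array ran from 175.6 to 418.45 for knockdown and from 130.7 to 514.8 for control, and the number of arrays limits the precision.

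The members and lists were chosen with earlier results of these data known. Named in the text are all members, the 3 highest and 3 lowest genes of each list by the mean over the siRNAs, the 5 genes most like CYCS, and TRMT12. One gene that this rule names is not reported here. Alternatives were median centring, the authors' ratios and normexp with an offset of 50. Others were a stricter filter, no filter on dim probes, spots with quality under 0.5 left out, 1 dye orientation and no dye term. Each array was also left out in turn, and the displaced blocks were realigned or left out. Without the filter on dim probes the same 28259 probes were tested with the same calls, so that alternative repeats the main fit.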

Additional observations from a re-analysis of the deposited data

Results flagged for a closer look

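Differences between siRNAs that passed limma's test were seen at 3 of the 14 tested probes other than CYCS. Of all tested probes, 2.59% were called between siRNA 2 and 1 and 9.26% between siRNA 3 and 1. Between siRNA 3 and 2 it was 10.2%, and none of the 14 was called there as deposited. HV3-16P20 of BBC3 was lower than with siRNA 1 both with siRNA 2, by -0.47 (adjusted p = 0.0213), and with siRNA 3, by -0.57 (adjusted p = 0.00646), and the arrays of siRNA 1 did not overlap the others. At HV3-49C15 of BCL2L11, siRNA 2 minus siRNA 1 was 0.37 (adjusted p = 0.0487). At HV3-42D23 of MCL1, siRNA 3 minus siRNA 1 was -0.48 (adjusted p = 0.0416). Across the 19 alternatives these 4 calls, in this order, held in 5, 16, 5 and 7. The alternative without a filter on dim probes repeats the main fit and counts as held in each. The differences ranged from -0.50 to -0.31, -0.61 to -0.39, 0.34 to 0.43 and -0.60 to -0.25. No cause was tested.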

How the results depend on the processing

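Counts of called probes among the 14 other than CYCS moved with the processing. Normexp with an offset of 50 left 0 called with each siRNA and 0 between siRNAs, where at most 0.0107% of all probes were called with any siRNA. Median centring gave 0 with siRNA 2 (7.82% of all probes), 2 with siRNA 3 (11.8%) and 0 between siRNAs, and the authors' ratios gave 1 with siRNA 2 (13.2%) and 1 between. Leaving out low-quality spots gave 7 with siRNA 1 (37.5% of all probes) and 7 with siRNA 3 (35.1%), and signal in both channels on all arrays gave 7 with siRNA 3 (31%). The Cy5 arrays alone gave 2 with siRNA 2 (24.6%) and 0 between. Without the dye term there were 0 with siRNA 2 (9.06%), 2 with siRNA 3 (9.4%) and 1 between. Leaving out 1 array in turn gave 2 to 4 with siRNA 1, where 8.12% to 27.3% of all probes were called. The counts were 1 to 3 with siRNA 2 (11.3% to 16.8%) and 0 to 3 with siRNA 3 (7.95% to 22.9%). Between siRNAs they were 1 to 3, with no share of all probes given here. Without array 1, 2 or 3 of siRNA 2 its count fell to 1 each, beside 11.3%, 14.7% and 12.5% of all probes. Without array 1, 2 or 3 of siRNA 3 its count was 0, 2 and 1, beside 9.76%, 10.4% and 7.95%. HV3-16P20 of BBC3 and HV3-49C15 of BCL2L11 kept their call with siRNA 1 in 18 of 19 alternatives each, and lost it with normexp. These tallies include the alternative without a filter on dim probes, which repeats the main fit and had to hold. Other calls held less often: BCL2L11 HV3-49C15 siRNA 3 in 16, BBC3 HV3-16P20 siRNA 2 in 14 and siRNA 3 in 11 (0.042 with median centring), BAX HV3-10E07 siRNA 3 in 14 and siRNA 2 in 8, BBC3 HV3-16P22 siRNA 2 in 12, MCL1 HV3-42F01 siRNA 1 in 7 (0.022 with median centring), BID HV3-02H21 siRNA 3 in 6 and BCL2L11 HV3-49C17 siRNA 2 in 5. CYCS HV3-69O11 had siRNA 2 minus 1 move to -0.423 with normexp and turn to 0.047 with median centring, 0.00878 on the Cy5 arrays, 0.0224 without array 2 of siRNA 1 and 0.0681 without array 3 of siRNA 2, within a leave-one-out range of -0.081 to 0.0681. The cause was not tested. The count across siRNAs stayed 0 under every alternative run for it, but the share of all probes called there did not stay at 0.00354%. It was 7.43% under the stricter filter, which asks for signal in both channels, and 7.28% without low-quality spots. Without array 2 of siRNA 2 it was 1.51%, and under the remaining alternatives at most 0.00708%. Of the list medians, that of the BCL2 protein regulators went below 0 under median centring (-0.086) and under the deposited calibrated ratios (-0.063), and that of the apoptosome and IAP genes rose above 0 with normexp (0.0093) and reached -0.126 with median centring. List counts were recomputed for the realigned blocks alone. No paired analysis was possible because the labels give no replicate numbers shared by the siRNAs. Signal limits BCL2, which lay near background.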
